A study of Saccharomyces cerevisiae with 40 samples.

Results

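The endoplasmic reticulum folding and translocation genes of budding yeast are 43 genes that were picked by name, from textbook functions. These genes were chosen with earlier results of these data known, out of the 5557 genes named by probes of either array table. They cover 8 roles: chaperones and cochaperones, disulfide bond formation, the unfolded protein response sensor with its transcription factor, degradation, the translocon, signal peptidase, oligosaccharyl transferase and protein O-mannosylation. In all, 38 of the 43 were tested, because a gene needed values on at least 30 of 40 arrays, and 14 had values on all 40. JEM1, UBC7 and SPC2 had no value on any array, and OST5 and OST6 had values on 21 arrays each.

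Proteins bound for secretion enter the endoplasmic reticulum through the Sec61 channel, lose their signal peptide to signal peptidase, receive N-linked glycans from oligosaccharyl transferase and O-linked mannose from Pmt proteins, and fold with the help of Hsp70 chaperones and disulfide isomerases. Proteins that fail to fold are sent back to the cytosol and degraded by the proteasome. When unfolded proteins gather, the membrane sensor Ire1 cuts an intron out of the HAC1 message, and the Hac1 protein then raises transcription of many folding genes. The array signal of HAC1 measures its RNA and does not tell the spliced from the unspliced form.

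The cells were strain Sigma1278b, in minimum medium with 3% glucose and a single nitrogen source, harvested in exponential growth at low density after at least 10 generations. The 20 sources were ammonium (given as ammonium sulfate), alanine, arginine, asparagine, aspartate, citrulline, gamma-aminobutyric acid (GABA), glutamate, glutamine, isoleucine, leucine, methionine, ornithine, phenylalanine, proline, serine, threonine, tryptophan, tyrosine and valine, at 10 mM except tryptophan at 5 mM. Each array held polyA RNA from a source and from urea (10 mM) in the Cy5 and Cy3 dyes, with 2 arrays per source, and urea was the only control of all 20 comparisons. The question of the series is what each nitrogen source does to gene expression.

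Values are log2 ratios of source over urea, so that a value of 1 is a 2-fold higher level than on urea. A fitted value is given ± SE (n = 2 arrays), and "rose" or "fell" means an adjusted p below 0.05 in limma, adjusted over all genes of that source. The SE rests on a spread shared by all arrays of a gene, and each array is centred on its own median, so RNA content per cell is not seen. Separate cultures for the arrays of a source are not stated by the labels, and the p-values therefore measure spread between arrays, which may be technical. The number of arrays limits the precision. For 18 sources the value table, the dye orientation and the replicate number coincide: the source was in Cy5 in replicate 1 and in Cy3 in replicate 2. If dye bias ran in opposite directions in these tables, all 18 would shift alike, and this cannot be told apart from a change against urea. On both arrays of tryptophan and of tyrosine, urea was the Cy5 channel, and their fitted values are the array means corrected by each gene's dye term. An array held values for 3294 to 5218 genes, and the correlation across genes between the arrays of a source ran from 0.372 for citrulline to 0.811 for glutamine, where genes are not independent replicates. Genes of known response ran as labelled, such as UGA4, the GABA permease gene, at 4.42 ± 0.18 on GABA, although CAR2 on ornithine, at 0.06 ± 0.17, and PUT1 on proline, at 1.14 ± 0.46, did not pass the test.

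Folding genes stood higher on most sources than on urea. Of 675 tests of a member on a source, 246 were higher and 17 were lower, where 10.1% of the tests over all genes were higher and 9.42% were lower. Chaperones and cochaperones held 74 of the higher calls in 101 tests, disulfide genes 55 in 112 and O-mannosyl transferases 19 in 38. The count was 35 in 139 for the translocon, 23 in 88 for degradation, 17 in 117 for oligosaccharyl transferase and 4 in 46 for signal peptidase. By member, 14 rose on at least 10 sources, 13 on 1 to 9 sources, and 8 fell on at least 1 source. Another 6 changed on none: ERV2, CUE1, YOS9, SBH2, SEC66 and SEC72.

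Over all sources together, 31 of 38 members departed from urea in the moderated F-test, against a background of 63.5% of all genes. Levels differed between the sources themselves for 20 members, against a background of 23.5%, and this test is free of any shift that all sources share. All 20 of these also departed from urea. The mean over sources was above 0 for 34 of 38 members, with a median of 0.22, where 48.5% of all genes had a mean above 0 and their median was -0.01.

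**Figure D1:**
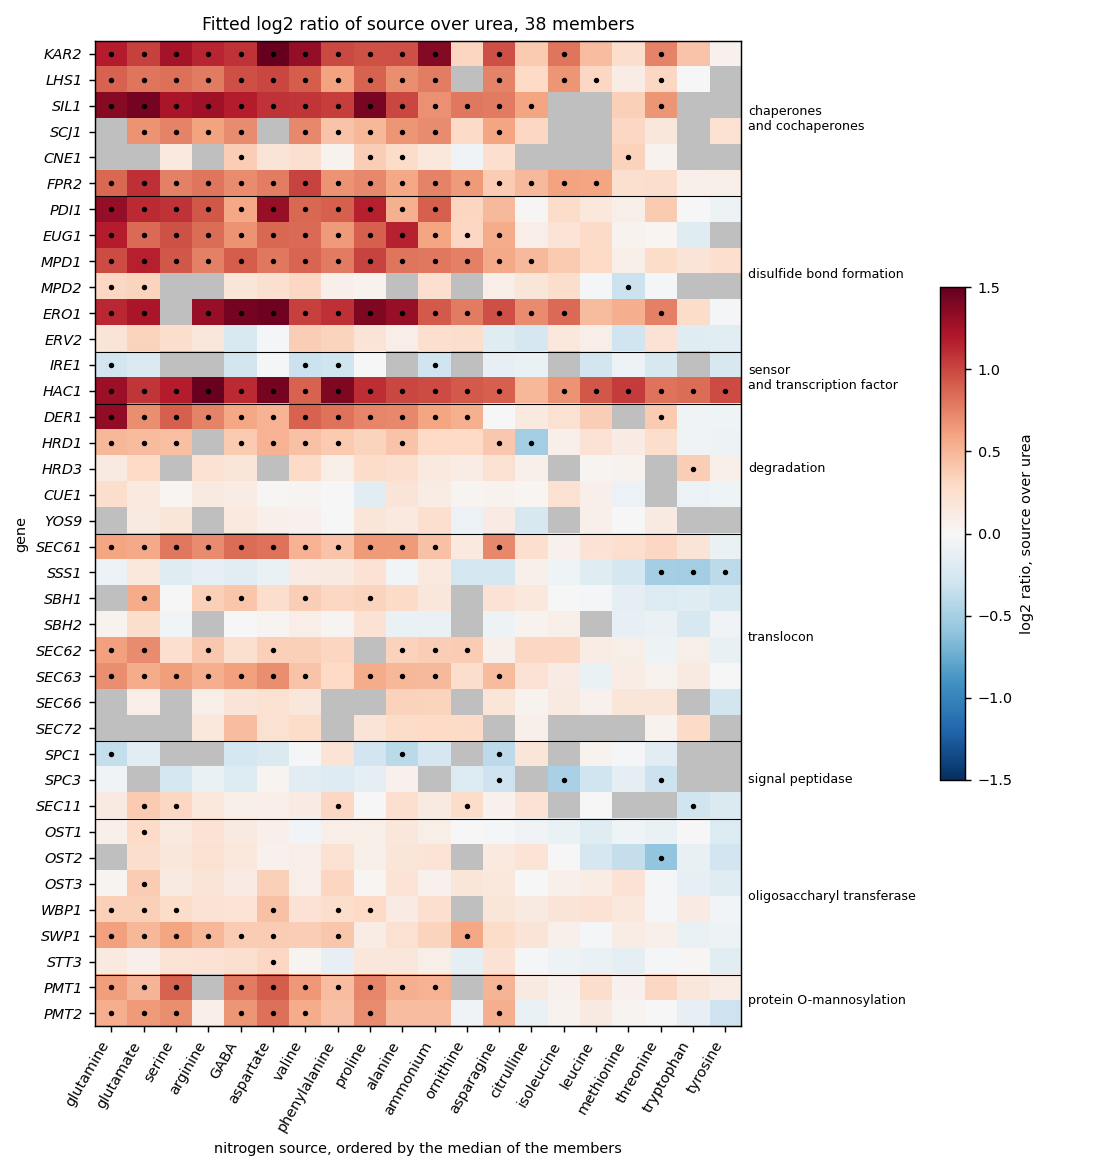
Fitted log2 ratio of source over urea for 38 members (rows, grouped by role) on 20 sources (columns, ordered by the median of the members). Dots mark an adjusted p below 0.05 and grey marks a source without values on both arrays; the red of KAR2 to ERO1 fades toward the right, where isoleucine, leucine, methionine, threonine, tryptophan and tyrosine stand, and HAC1 is marked on 19 of 20 sources.

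Both dye orientations showed the shift. With the source in Cy5, 33 members had a mean above 0 (median 0.23), and with the source in Cy3, 36 did (median 0.32). In both orientations 32 of 38 members were above 0, where 32.8% of all genes were. The dye term passed the test for 21 of 38 members, where it passed for 2042 of the 4332 genes fitted. HAC1 averaged 1.34 with the source in Cy5 and 0.75 in Cy3, whereas ERO1 averaged 0.75 and 1.32. Between the orientations 5 members changed sign. SPC1, SPC3, SSS1 and OST1 stood at -0.51, -0.38, -0.32 and -0.04 in Cy5 and at 0.19, 0.04, 0.17 and 0.12 in Cy3, and STT3 at 0.17 in Cy5 and -0.03 in Cy3.

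**Figure D2:**
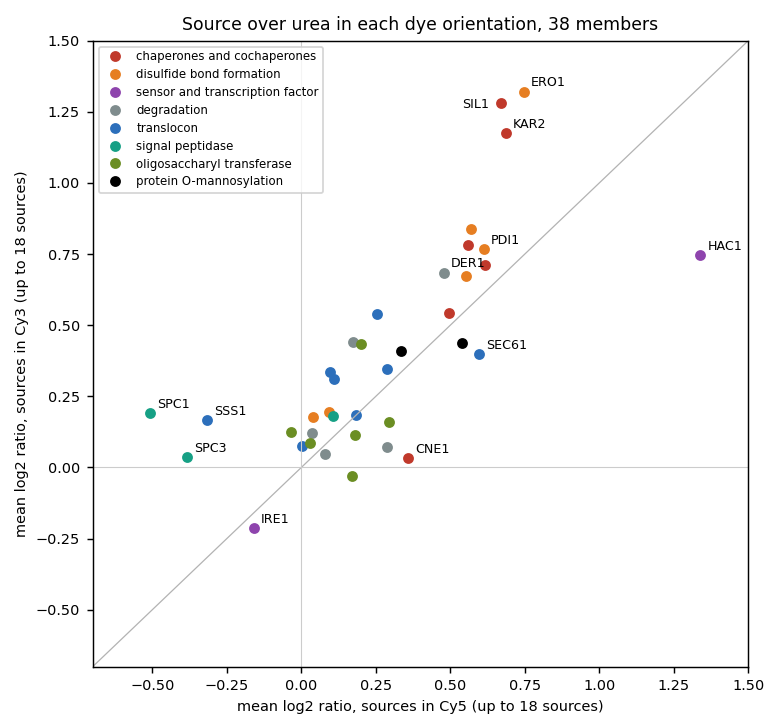
Mean log2 ratio of source over urea for each of 38 members in the table with sources in Cy5 (horizontal) and in the table with sources in Cy3 (vertical), up to 18 sources each, coloured by role. The line marks equal means; HAC1 lies to its right at 1.34 and 0.75, and SPC1, SSS1 and SPC3 lie left of 0 on the horizontal axis and above 0 on the vertical one.

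KAR2 encodes the Hsp70 chaperone BiP, which pulls chains into the lumen and folds them. On aspartate its arrays read 1.09 and 1.90 and on valine 0.89 and 1.76, with fitted values of 1.50 ± 0.20 and 1.32 ± 0.20 (adjusted p = 8.2e-06 and 7.2e-05). On ornithine they read -0.01 and 0.64, on methionine 0.20 and 0.33, and on tyrosine 0.21 and 0.39. KAR2 rose on 14 of 20 sources and did not pass the test on citrulline, leucine, methionine, ornithine, tryptophan and tyrosine. Its arrays with the source in Cy3 were mostly the higher ones, and both arrays were above 0 on all sources except ornithine. With either array of a source left out, 6 of the 14 calls were kept.

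LHS1 encodes another Hsp70 that acts as exchange factor for Kar2, and it had the largest F of the chaperone group. Its arrays read 0.90 and 1.09 on aspartate and 0.69 and 1.23 on GABA, with fitted values of 1.00 ± 0.11 and 0.96 ± 0.11 (adjusted p = 6.9e-07 and 8.7e-07). They read 0.10 and 0.13 on methionine and 0.32 and -0.10 on tryptophan, where the fit gave 0.12 ± 0.11 and 0.00 ± 0.11. LHS1 rose on 15 of 18 tested sources, and 12 of the 15 calls were kept without either array. It was not tested on ornithine and tyrosine, which lack an array each.

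The other chaperones followed at different sizes. SIL1, a further exchange factor of Kar2, rose on 15 of 16 sources, from 0.36 on methionine, which did not pass, to 1.43 ± 0.18 on glutamate. FPR2, a peptidyl-prolyl isomerase, rose on 16 of 20, up to 1.10 ± 0.13 on glutamate. SCJ1, a J-domain partner of Kar2, rose on 10 of 15, up to 0.74 on serine, and a single call was kept without either array. CNE1, the yeast calnexin, rose on 4 of 12, with its highest value of 0.37 on GABA. Without either array, 8 of the 15 calls of SIL1, 8 of the 16 of FPR2 and none of CNE1 were kept.

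Among disulfide genes EUG1, a non-essential relative of protein disulfide isomerase, had the largest F of all members. Its arrays read 1.04 and 1.32 on glutamine, 1.14 and 1.18 on alanine, 0.04 and 0.01 on threonine, and -0.11 and -0.12 on tryptophan. The fitted values were 1.18 ± 0.10, 1.16 ± 0.10, 0.03 ± 0.10 and -0.18 ± 0.11 (adjusted p = 5.7e-09, 4.4e-08, 0.89 and 0.27). EUG1 rose on 13 of 19 sources, and 11 calls were kept without either array. Tyrosine, with an array at -0.26 and no value on the other, was not tested.

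PDI1 encodes the essential protein disulfide isomerase. It rose on 11 of 20 sources, most on glutamine and aspartate, at 1.31 ± 0.18 each, from arrays of 1.29 and 1.34 and of 1.42 and 1.20. On tyrosine and tryptophan it stood at -0.07 ± 0.19 and 0.01 ± 0.19. ERO1, the oxidase that supplies disulfides to Pdi1, rose on 15 of 19 sources, from 0.71 ± 0.21 on citrulline to 1.46 ± 0.21 on aspartate among those called. Without either array 5 of the 11 calls of PDI1 and 7 of the 15 of ERO1 were kept. MPD1, another isomerase-like gene, rose on 14 of 20, with 12 calls kept without either array. MPD2 rose on 2 of 14 sources and fell on methionine (-0.32 ± 0.11, adjusted p = 0.037), and ERV2, a sulfhydryl oxidase, passed on none of 20.

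HAC1, the transcription factor gene of the unfolded protein response, rose on 19 of 20 sources. Its arrays read 1.54 and 1.42 on arginine, 1.92 and 0.95 on aspartate, 1.50 and 0.61 on methionine, and 0.78 and 0.21 on citrulline. The fit gave 1.48 ± 0.17, 1.44 ± 0.17, 1.05 ± 0.17 and 0.49 ± 0.17 (adjusted p = 1.8e-06, 1.8e-06, 5.5e-05 and 0.068), and citrulline was the source that did not pass. All arrays of HAC1 were above 0, and on each of the 18 sources with both orientations the array with the source in Cy5 was the higher one. The mean over sources was 1.03 (SD 0.25), and the sources did not differ in the F-test between them (adjusted p = 0.122). Without either array 12 of 19 calls were kept, and with a block for the replicate replacing the dye term tryptophan lost its call, at 0.54 with adjusted p = 0.081.

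IRE1, the sensor that splices the HAC1 message, fell on 4 of 14 tested sources and rose on none. Its arrays read -0.16 and -0.47 on valine, where the fit gave -0.32 ± 0.10 (adjusted p = 0.036), and ammonium, glutamine and phenylalanine lay between -0.30 and -0.28. The mean over sources was -0.20 (SD 0.11). The adjusted p of the 4 calls ran from 0.036 on valine to just under the threshold on glutamine, and none was kept without either array.

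**Figure D3:**
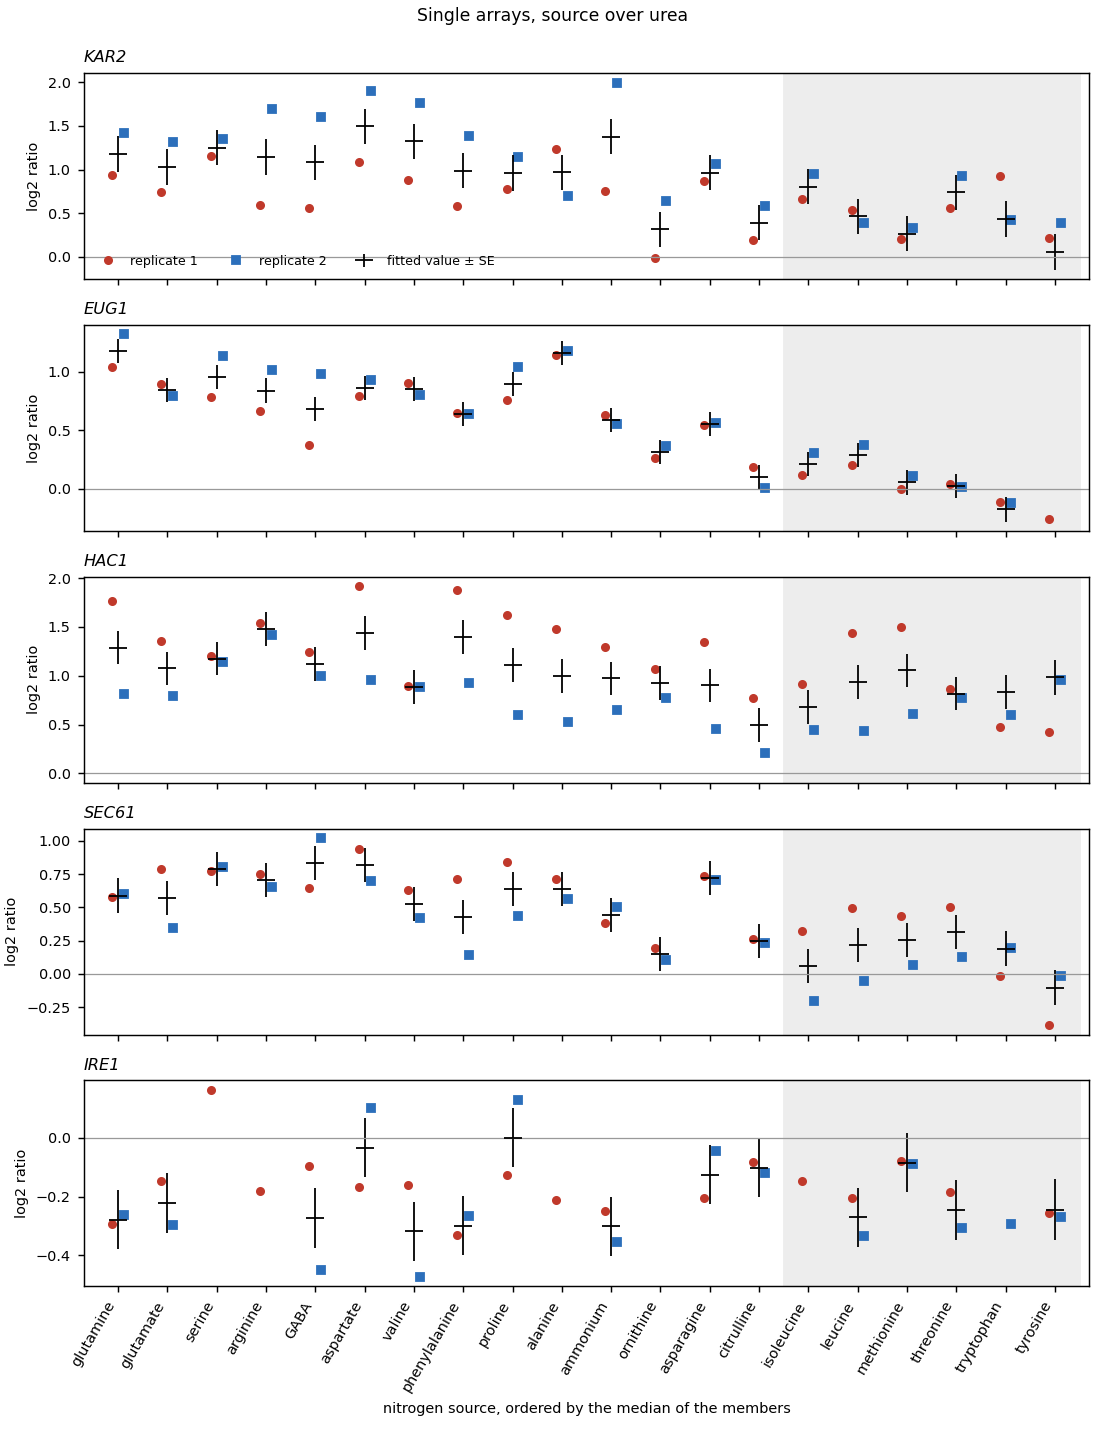
Single-array log2 ratios of source over urea for KAR2, EUG1, HAC1, SEC61 and IRE1, with replicate 1 as circles, replicate 2 as squares and the fitted value ± SE as crosses; sources are in the order of the members' median and the grey band holds isoleucine, leucine, methionine, threonine, tryptophan and tyrosine. EUG1 lies between -0.26 and 0.38 in the band and HAC1 stays above 0 on every source; fitted values of tryptophan and tyrosine lie off the array mean by the dye term.

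DER1, a membrane protein of the retrotranslocation machinery, led the degradation group. Its arrays read 1.14 and 1.51 on glutamine, 0.83 and 0.98 on serine, and -0.33 and 0.34 on asparagine. The fitted values were 1.33 ± 0.13, 0.90 ± 0.13 and 0.01 ± 0.13 (adjusted p = 5.6e-08, 2.1e-05 and 0.98). Glutamine was its highest source, and its difference from asparagine was not tested. DER1 rose on 13 of 19 sources, and 7 calls were kept without either array.

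In the rest of the degradation group few sources passed. HRD1, the ubiquitin ligase, rose on 9 of 19 sources, up to 0.52 on aspartate, and fell on citrulline (-0.52 ± 0.14, adjusted p = 0.022), where its arrays read -1.05 and 0.01. None of its calls was kept without either array. HRD3, the partner that keeps Hrd1 stable, rose on tryptophan alone among 16 sources (0.36 ± 0.12), while CUE1, which recruits the ubiquitin-conjugating enzyme, and YOS9, a lectin for misfolded glycoproteins, passed on none of 19 and 15.

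SEC61, the channel subunit of the translocon, rose on 12 of 20 sources. Its arrays read 0.65 and 1.02 on GABA, 0.94 and 0.69 on aspartate, 0.32 and -0.20 on isoleucine, and -0.39 and -0.02 on tyrosine. The fit gave 0.84 ± 0.13, 0.82 ± 0.13, 0.06 ± 0.13 and -0.10 ± 0.13 (adjusted p = 4e-05, 5.8e-05, 0.83 and 0.64). With either array left out 5 of its 12 calls were kept.

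Most other translocon subunits gave fewer calls. SEC63, a J-domain subunit that brings Kar2 to the channel, rose on 11 of 20 sources, up to 0.70 ± 0.12 on glutamine, with a single call kept without either array. SEC62, its partner in posttranslational import, rose on 7 of 19, and SBH1, a small beta subunit, on 5 of 18, with none of these calls kept without either array. SBH2, the paralog of SBH1, SEC66 and SEC72 passed on none of 17, 14 and 11 sources. SSS1, the gamma subunit, fell on threonine (-0.51 ± 0.13), tryptophan (-0.52 ± 0.13) and tyrosine (-0.40 ± 0.13), and it rose on none of 20.

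Signal peptidase held 7 of the 17 lower calls, in 46 tests of 3 genes (15.2%, where 9.42% of the tests over all genes were lower). SPC1, a small non-catalytic subunit, had the largest F of the group and fell on alanine, asparagine and glutamine (-0.41 ± 0.11, -0.39 ± 0.11 and -0.36 ± 0.11). The arrays read -0.77 and -0.05 on alanine, -0.84 and 0.07 on asparagine and -0.54 and -0.18 on glutamine, so the replicate with the source in Cy5 carried the low values. SPC3, an essential subunit, fell on asparagine, isoleucine and threonine, from -0.48 to -0.31, with the same array the lower one each time. SEC11, the catalytic subunit, rose on glutamate, serine, phenylalanine and ornithine, up to 0.39 on glutamate, and fell on tryptophan (-0.30 ± 0.10). None of the 17 lower calls of the members was kept without either array, and a replicate block that replaced the dye term left 11 lower calls.

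Oligosaccharyl transferase genes attach N-linked glycans, and 17 of 117 tests of this group were higher (14.5%), a share near the 10.1% of all genes. SWP1, an essential subunit, had the largest F of its group and rose on 8 of 20 sources. Its arrays read 0.58 and 0.66 on glutamine, 0.34 and 0.83 on serine, and -0.09 and 0.05 on leucine, with fitted values of 0.62 ± 0.14, 0.59 ± 0.14 and -0.02 ± 0.14 (adjusted p = 0.0017, 0.0027 and 0.94). WBP1, its essential partner, rose on 6 of 19. STT3, the catalytic subunit, rose on aspartate alone (0.31), OST1 and OST3 rose on glutamate alone (0.28 and 0.38), and OST2 fell on threonine (-0.60 ± 0.14) from arrays of -0.51 and -0.68. None of the higher calls of this group was kept without either array.

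PMT1 and PMT2 encode the O-mannosyl transferases that act as a complex. PMT1 rose on 11 of 18 sources, with arrays of 0.81 and 1.01 on aspartate and 0.90 and 0.86 on serine, and fitted values of 0.91 ± 0.13 and 0.88 ± 0.13 (adjusted p = 3.1e-05 each). On methionine its arrays read 0.18 and -0.05. PMT2 rose on 8 of 20, up to 0.82 on aspartate, and stood at -0.31 on tyrosine. Without either array 2 of the 11 calls of PMT1 and none of the 8 of PMT2 were kept. Across 18 sources the fitted values of PMT1 and PMT2 correlated at r = 0.93. This is a description only, since every source was compared with urea and both genes were read on the same arrays.

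The same description over sources set KAR2 near LHS1 (r = 0.90, 18 sources), PDI1 (0.87, 20 sources), SCJ1 (0.86, 15 sources), PMT1 (0.86, 18 sources) and PMT2 (0.85, 20 sources). HAC1 stood at 0.51 with KAR2 over 20 sources, IRE1 at -0.12 over 14 and SPC1 at -0.48 over 14. PDI1 and its paralog EUG1 reached 0.84 over 19 sources, and SBH1 and SBH2 0.68 over 16. EUG1 and FPR2, neighbours on chromosome IV in the RefSeq R64 annotation, reached 0.77 over 19. Whether probes of paralogs share signal was not tested, and OST6, the paralog of OST3, was not tested for lack of values.

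By source, glutamate showed the most higher members, 24 of 35, against 10.5% of all genes. On GABA 19 of 38 members rose (10.2% of all genes), on aspartate 19 of 36 (11.3%) and on glutamine 19 of 31 (12.1%). The counts were 18 of 31 on serine (12.7%), 18 of 36 on proline (9.6%), 17 of 36 on alanine (9.57%), 17 of 36 on phenylalanine (10.6%) and 17 of 38 on valine (9.48%). They were 16 of 30 on arginine (8.59%), 15 of 37 on ammonium (10.2%), 14 of 37 on asparagine (10.4%) and 10 of 28 on ornithine (10.5%).

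Fewer members rose on each of the remaining 7 sources. The count was 6 of 35 on threonine (12.7% of all genes), 5 of 29 on isoleucine (5.73%), 4 of 36 on citrulline (5.25%) and 3 of 33 on leucine (10.4%). It was 2 of 35 on methionine (12.7%), 2 of 29 on tryptophan (10.3%) and 1 of 29 on tyrosine (8.43%). On methionine, tryptophan and tyrosine the members' share was below that of all genes, and on leucine it was near it. On threonine, isoleucine and citrulline the members' share was above that of all genes. Isoleucine and citrulline also had the lowest shares of higher calls over all genes. HAC1 was the highest called member on leucine (0.94 ± 0.17), methionine (1.05 ± 0.17), threonine (0.82 ± 0.17), tryptophan (0.83 ± 0.18) and tyrosine (0.98 ± 0.18), where it was the only higher call. Next to it came FPR2 on leucine (0.60 ± 0.13), CNE1 on methionine (0.35 ± 0.09), ERO1 on threonine (0.75 ± 0.21) and HRD3 on tryptophan (0.36 ± 0.12). ERO1 was highest on isoleucine (0.85 ± 0.21), before KAR2 (0.81 ± 0.20), and on citrulline (0.71 ± 0.21), before SIL1 (0.59 ± 0.18).

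Where members rose widely, KAR2, ERO1, SIL1 and HAC1 were most often the highest. ERO1 and SIL1 led on glutamate (1.22 ± 0.21 and 1.43 ± 0.18), GABA (1.44 ± 0.21 and 1.18 ± 0.18) and proline (1.40 ± 0.21 and 1.42 ± 0.18). KAR2 led with ERO1 on aspartate (1.50 ± 0.20 and 1.46 ± 0.21) and asparagine (0.97 ± 0.20 and 0.96 ± 0.21), and with SIL1 on serine (1.25 ± 0.20 and 1.23 ± 0.18) and valine (1.32 ± 0.20 and 1.07 ± 0.18). SIL1 and DER1 led on glutamine (1.36 ± 0.18 and 1.33 ± 0.13), ERO1 and EUG1 on alanine (1.30 ± 0.21 and 1.16 ± 0.10), and HAC1 with ERO1 on arginine (1.48 ± 0.17 and 1.30 ± 0.21) and phenylalanine (1.40 ± 0.17 and 1.10 ± 0.21). KAR2 and HAC1 led on ammonium (1.38 ± 0.20 and 0.97 ± 0.17), and HAC1 and SIL1 on ornithine (0.92 ± 0.17 and 0.79 ± 0.18).

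Lower calls were few on each source, and on threonine, tryptophan and isoleucine the members' share was near that of all genes. On threonine 3 of 35 members fell (8.8% of all genes). The count was 2 of 37 on asparagine (14.7%), 2 of 31 on glutamine (12.9%) and 2 of 29 on tryptophan (8.43%). It was 1 of 36 on alanine (12.1%), 1 of 37 on ammonium (10.7%), 1 of 36 on citrulline (4.87%) and 1 of 29 on isoleucine (3.76%). It was 1 of 35 on methionine (11.1%), 1 of 36 on phenylalanine (9.8%), 1 of 29 on tyrosine (6.62%) and 1 of 38 on valine (6.87%). On GABA (11%), arginine (8.91%), aspartate (10.1%), glutamate (9.87%), leucine (8.27%), ornithine (10.1%), proline (7.61%) and serine (11.3%) none fell.

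The counts depended on single arrays, and a source left with 1 array was assumed to vary like the others. Of the 246 higher calls, 97 were kept whichever array of the source was left out, while 100 were lost without replicate 1 and 118 without replicate 2. GABA fell from 19 higher members to 16 without replicate 1 and to 4 without replicate 2. Ammonium went from 15 to 14 and 6, arginine from 16 to 14 and 8, alanine from 17 to 7 and 11, and glutamate from 24 to 11 and 16. Asparagine went from 14 to 6 and 7, phenylalanine from 17 to 8 and 9, valine from 17 to 9 and 9, and ornithine from 10 to 5 and 3. Proline, glutamine, aspartate and serine also had fewer higher members with either replicate left out. The counts by source are all calls of each refit, so members not called before can enter. Threonine fell to 1 without either replicate 1 or replicate 2, isoleucine to 3 and 1, citrulline to 2 and 0, leucine to 1 and 1, and methionine to 1 and 1. Tryptophan had 2 and 0, and tyrosine 2 and 0.

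Isoleucine, leucine, methionine, threonine, tryptophan and tyrosine were next set against the 14 other sources, with the source as the unit. In class comparisons "fell" or "rose" means lower or higher in the class than on the other sources, at an adjusted p below 0.05. It does not mean a level below or above urea. This class is known from work on these same arrays, so it is no independent grouping, and the comparison is free of a shift shared by all sources. Members stood lower on the 6 amino acids: all 31 members tested were below 0, 19 fell and none rose, where 5.36% of all genes fell, 6.26% rose and 49.2% were below 0. The median difference of the members was -0.30, and that of all genes 0.00. Citrulline, among the 14 other sources, stood near the 6, with 4 of 36 members higher than on urea (5.25% of all genes). The members' median was 0.141 on citrulline and 0.136 on isoleucine, the highest of the 6. By role, all 3 chaperones tested fell, 4 of 6 disulfide genes, 5 of 7 translocon genes, 4 of 6 oligosaccharyl transferase genes, both O-mannosyl transferases and 1 of 4 degradation genes. HAC1, IRE1 and the signal peptidase gene SPC3 did not pass.

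PDI1 showed the largest difference, averaging 0.14 (SD 0.17, n = 6 sources) against 0.82 (SD 0.39, n = 14), a difference of -0.68 ± 0.15 (SE, adjusted p = 0.0053 in limma). EUG1 averaged 0.08 on 5 sources and 0.75 on 14 (difference -0.67 ± 0.13), and ERO1 0.48 on 6 and 1.13 on 13 (-0.65 ± 0.12). KAR2 averaged 0.46, from 0.06 to 0.81 with a median of 0.45, against 1.03, from 0.32 to 1.50 with a median of 1.06, and differed by -0.57 ± 0.15. The classes overlapped for PDI1, EUG1, ERO1 and KAR2.

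MPD1 (-0.58 ± 0.08), SEC63 (-0.44 ± 0.07) and OST2 (-0.44 ± 0.06) were the 3 members whose classes did not overlap, where 0.517% of all genes lay wholly below in this way. MPD1 ranged from 0.09 to 0.39 on the 6 amino acids and from 0.48 to 1.17 on the others. SEC63 ranged from -0.10 to 0.13 and from 0.22 to 0.70, and OST2 from -0.60 to 0.00 on 6 and from 0.07 to 0.26 on 12 sources. The remaining largest differences were LHS1 (-0.50 ± 0.10), PMT2 (-0.50 ± 0.12), DER1 (-0.48 ± 0.15) and PMT1 (-0.44 ± 0.09). HAC1 averaged 0.88 on the 6 amino acids and 1.09 on the others (-0.21 ± 0.11, adjusted p = 0.233), and IRE1 -0.21 and -0.20 (-0.02 ± 0.07, adjusted p = 0.919). That HAC1 differed less than KAR2 was not tested.

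**Figure D4:**
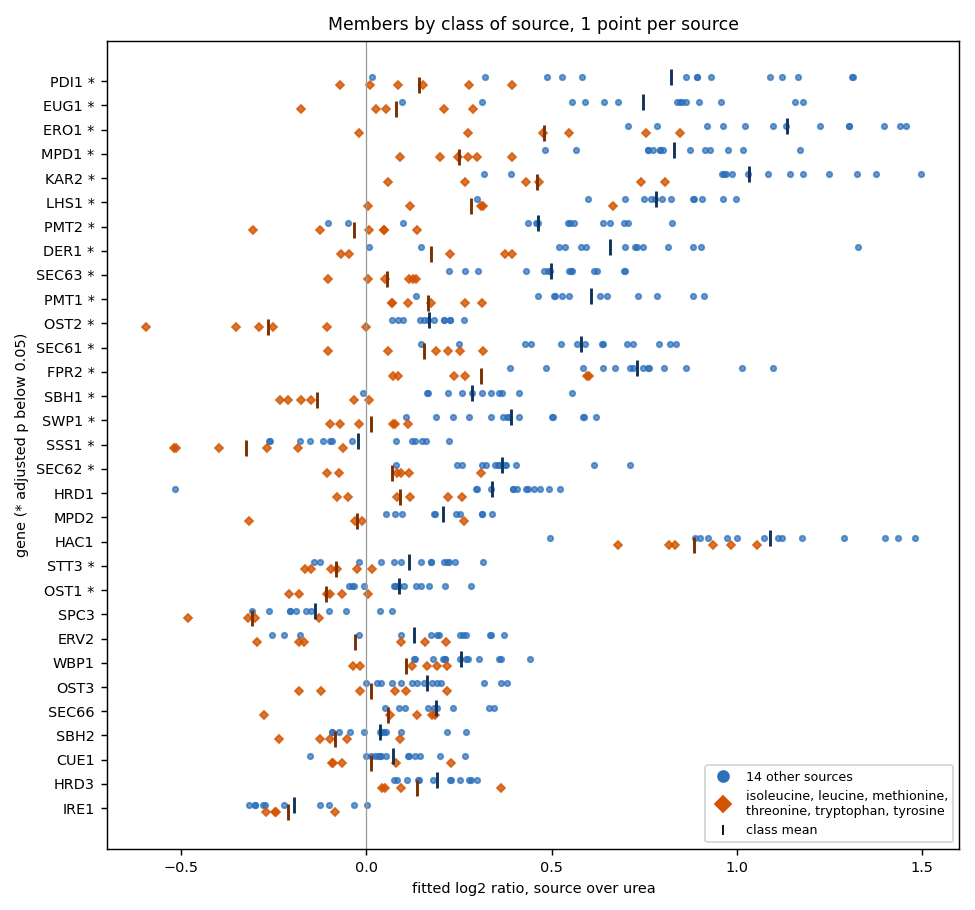
Fitted log2 ratio of source over urea for 31 members (rows, ordered by the class difference), 1 point per source, with the 6 amino acids as diamonds, the 14 other sources as circles and class means as ticks. Stars mark 19 members with an adjusted p below 0.05; MPD1, SEC63 and OST2 have no overlap between classes, and HAC1 lies above 0 in both.

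Fewer members passed when tryptophan and tyrosine were left out of the class, which then had fewer sources. Without both, 11 members fell, and the share of all genes in that fit is not given here. Whether the smaller class or these sources account for the drop was not tested. FPR2 (-0.31, adjusted p = 0.073), KAR2 (-0.46, 0.0951), PDI1 (-0.60, 0.0513), PMT2 (-0.40, 0.0755), SEC62 (-0.26, 0.08), SSS1 (-0.23, 0.139) and STT3 (-0.20, 0.0944) no longer passed, and DER1 had too few sources for the test. Tryptophan and tyrosine have no array with the source in Cy5, so the class lacks both in that table and is not the same in each table. Within the table with sources in Cy5, 31 of 36 members were below 0. There 5 fell (EUG1, MPD1, OST2, SBH1 and SEC63) against 1.72% of all genes, and SEC66 rose. Within the table with sources in Cy3, 34 of 36 were below 0 and 21 fell against 2.68% of all genes. SEC66 stood at 0.39 ± 0.09 in the first table and -0.57 ± 0.11 in the other, a difference between tables that was not tested. With single arrays left out, 17 to 21 members fell. DER1 lost its call without GABA replicate 2, asparagine replicate 2, citrulline replicate 1 or threonine replicate 2 (adjusted p up to 0.0717), and PMT2 lost it without arginine replicate 2 (0.055). OST1 lost it without tryptophan replicate 2 (0.0604), and SSS1 without isoleucine replicate 1 (0.0524) and with a replicate block (-0.22, 0.0705). STT3 lost it in 8 of the 40 fits that left out an array.

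The 7 amino acids that leave fusel alcohols or acids when yeast takes their nitrogen (isoleucine, leucine, valine, methionine, phenylalanine, tryptophan and tyrosine) were set against the 13 other sources. Of 35 members tested, 34 were below 0, 2 fell and none rose, where 0.661% of all genes fell and 2.25% rose. The 2 were SEC63, at 0.14 (SD 0.18, n = 7 sources) against 0.48 (SD 0.19, n = 13), a difference of -0.34 ± 0.09 (adjusted p = 0.037 in limma), and STT3, at -0.08 against 0.13 (-0.21 ± 0.06, adjusted p = 0.045). At an unadjusted p below 0.05, 15 members were lower and SPC1 was higher (0.28), where 9.9% of all genes were lower and 12.1% higher. None fell without tryptophan and tyrosine, where the share of all genes is not given here. None fell within either table alone, where 0.0926% of all genes fell with sources in Cy5 and 0% with sources in Cy3. The table with sources in Cy5 lacks tryptophan and tyrosine. With threonine added to the class, 12 of 37 members and 4.17% of all genes were lower.

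The fusel count also moved with single arrays. It was 0 without tyrosine replicate 1, and 4 without leucine replicate 1, threonine replicate 2 or valine replicate 1. It was 1 without replicate 1 of alanine, arginine, aspartate, citrulline, glutamate, proline, threonine or tryptophan, without replicate 2 of GABA, ammonium, glutamine, leucine, phenylalanine or serine, and without either replicate of asparagine. Without citrulline replicate 1, 1 member rose. SEC63 lost its call without citrulline replicate 1, tryptophan replicate 2 or tyrosine replicate 1 (adjusted p = 0.0543, 0.0533 and 0.0691) and with a replicate block (-0.30, 0.0531), and STT3 lost it in 20 of the 40 fits that left out an array.

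Pairs of related sources were compared next, each at 10 mM, in 10 pairs with p-values adjusted over all genes and pairs together. The members gave 10 calls, with 25 to 35 members tested in each of the 10 pairs, where 1.7% of all gene-pair tests passed. Serine and threonine, the hydroxyl amino acids that differ by a methyl group, showed 2 calls of 29 members (2.89% of all genes), and the difference was below 0 for all 29 members and for 47.6% of all genes. EUG1 read 0.04 and 0.01 on threonine and 0.78 and 1.13 on serine, a difference of -0.93 ± 0.15 (adjusted p = 0.00062), and OST2 differed by -0.76 ± 0.19 (adjusted p = 0.043). The EUG1 call was kept whichever of the 4 arrays was left out, and the OST2 call was lost with each of them left out (adjusted p up to 0.235).

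The branched-chain amino acids were also compared with each other. Leucine lay below valine for LHS1 (-0.59 ± 0.15) and EUG1 (-0.56 ± 0.15), 2 of 33 members against 1.63% of all genes, with 26 of 33 members and 51.5% of all genes below 0. The EUG1 call was lost without any of the 4 arrays (adjusted p up to 0.283), and the LHS1 call without leucine replicate 2 or either array of valine (adjusted p up to 0.304). Isoleucine lay below valine for EUG1 (-0.64 ± 0.15), 1 of 29 against 0.896%, with 28 of 29 members and 49.4% of all genes below 0. That call was lost without valine replicate 1 or either array of isoleucine (adjusted p up to 0.179). Leucine and isoleucine differed for no member of 28 (1.42%), with an interval of about 0.38 either side of the difference, and 18 of 28 members and 51.1% of all genes were below 0.

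Arginine stood above citrulline for HAC1 (0.98 ± 0.24) and EUG1 (0.74 ± 0.15), 2 of 29 members against 3.01% of all genes. The difference was below 0 for 2 of 29 members and for 50.1% of all genes. The HAC1 call was lost without arginine replicate 2 (0.74, adjusted p = 0.261), citrulline replicate 1 (0.97, 0.126) or citrulline replicate 2 (1.00, 0.131), with a replicate block that replaced the dye term (0.107), without a dye term (0.518) and with array weights (0.155). The EUG1 call was lost without arginine replicate 2 (0.62, adjusted p = 0.081) or citrulline replicate 2 (0.58, 0.119). Ornithine stood above citrulline for HRD1 (0.81 ± 0.20), 1 of 26 against 3.25%, where the low citrulline array of HRD1 at -1.05 enters: without that array the difference was 0.38 (adjusted p = 0.435). The call was also lost without either array of ornithine (adjusted p = 0.115 and 0.16). The difference was below 0 for 5 of 26 members and for 50.7% of all genes. Arginine and ornithine differed for none of 25 (0.321%), with 5 of 25 members and 52.6% of all genes below 0. Phenylalanine, which lacks the ring hydroxyl of tyrosine, stood above it for DER1 (0.88 ± 0.19) and SEC11 (0.52 ± 0.13), 2 of 28 against 1.94%, with 2 of 28 members and 52.9% of all genes below 0. The DER1 call was lost without phenylalanine replicate 1 (0.77, adjusted p = 0.114) or tyrosine replicate 2 (0.72, 0.131), with a replicate block (0.76, 0.067) and without a dye term (0.208). The SEC11 call was lost whichever of the 4 arrays was left out (adjusted p up to 0.201) and with a replicate block (0.46, 0.117).

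The amides and their acids gave no call. Asparagine minus aspartate was tested for 35 members (0.864% of all genes passed) and glutamine minus glutamate for 30 (0.801%). The 95% interval of a member's difference was wide, with a median of about 0.37 either side before any adjustment. Larger differences also went uncalled, up to 0.82 in size for asparagine minus aspartate and 0.63 for glutamine minus glutamate. The lack of calls therefore does not show equal levels. Asparagine lay below aspartate for 31 of 35 members and 58% of all genes, and glutamine below glutamate for 17 of 30 members and 49.8% of all genes.

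The pair calls were sensitive to single arrays. Their number was 5 without citrulline replicate 2, ornithine replicate 2, phenylalanine replicate 1 or valine replicate 1. It was 6 without aspartate replicate 2, phenylalanine replicate 2, valine replicate 2, citrulline replicate 1, ornithine replicate 1, or either replicate of asparagine or serine. With a replicate block that replaced the dye term 3 calls stood, those of EUG1 between threonine and serine, isoleucine and valine, and arginine and citrulline. Without a dye term 2 stood, those of EUG1 between threonine and serine and between arginine and citrulline.

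Genes of the neighbouring steps were read from 9 lists chosen with earlier results of these data known, beside the 10.1% higher and 9.42% lower of the tests over all genes. Of coat proteins of vesicles that leave or return to the endoplasmic reticulum, COPII genes rose in 52 of 167 tests (31.1%), led by SFB2 (13 sources, mean 0.53) and SEC24 (11 sources, mean 0.24), which encode related cargo adaptors. COPI genes rose in 33 of 119 (27.7%), led by SEC26 (12 sources, mean 0.25), and no coat gene fell. Lipid-linked glycan synthesis rose in 43 of 252 tests (17.1%) and fell in 7 (2.78%), with SEC59, dolichol kinase, at 11 of the 43 (mean 0.30). Glycan trimming genes rose in 1 of 30 tests (3.33%). Other O-mannosyl transferases rose in 11 of 56 (19.6%), all of them PMT3 (11 of 16 sources, mean 0.49), and PMT4 and PMT6 rose on none.

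Genes of the signal recognition particle and its receptor, which bring ribosomes to the membrane, rose in 1 of 155 tests (0.645%) and fell in 10 (6.45%), both below the shares of all genes, and SEC65 held 7 of the 10 (mean -0.19). Tail anchor insertion rose in 8 of 60 tests (13.3%), a share near that of all genes and all of them GET3, and fell in 1. Other degradation genes rose in 13 of 145 tests (8.97%) and fell in 18 (12.4%), both near the shares of all genes. Among them DFM1, a relative of DER1, rose on 11 of 19 sources (mean 0.38), whereas SSM4, the Doa10 ubiquitin ligase, fell on 11 of 16 (mean -0.29) and UBC6, its conjugating enzyme, on 5 of 17. Cytosolic chaperones rose in 39 of 157 tests (24.8%) and fell in 1 (0.637%), and HSC82, an Hsp90, held 19 of the 39 (mean 0.69).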

How the data were processed

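Each spot of a 2-colour array has a log2 ratio of its channels, as deposited by the authors. Sign and range show a log scale, and base 2 is assumed. Background correction and normalization: not given in the sources used here, although every array has a median within 0.01 of 0. Of 12800 probes in each table, 10890 and 11188 named 1 gene, per the platform annotation, and the others were left out. Spots of a gene were averaged (correlation between duplicates 0.885 to 0.982). Members and lists were chosen with earlier results of these data known. No ratio was filled in.

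Genes on at least 30 of 40 arrays (4332) were fitted in limma 3.58.1 (R 4.3.3, statmod 1.5.0) with source terms, signed by dye orientation, plus an intercept for dye, and two-sided p-values were Benjamini-Hochberg adjusted over all genes (threshold 0.05). Both arrays of a source had to have a value. Class comparisons used limma on the 20 fitted source values (at least 4 and 7 sources per class), and pairs were contrasts in the main fit. Across the 18 sources with both orientations, replicate differences correlated over 0.1 in all 153 pairs of sources (median 0.44). Replicate number coincides with dye orientation there, so this cannot tell a pairing of samples from dye bias. A replicate block is an alternative. The fit was tested on simulated data. Figures used Python 3.11.15 with matplotlib 3.10.9, pandas 2.3.3 and numpy 2.4.6. Alternatives were the dye term, the block, array medians, the array minimum, spot medians, array weights, arrays left out, class membership and, chosen after seeing the data, single tables and fits without tryptophan and tyrosine. Genes named are the member with the largest F of each role with KAR2 and HAC1, up to 2 highest and lowest called members per source, up to 10 called per class comparison and 3 per pair, and up to 4 genes per other list. Further members are named to account for all 43, and SEC66 was singled out after its values were seen.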

Additional observations from a re-analysis of the deposited data

How the results depend on the processing

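Of 246 higher and 17 lower calls against urea, genes on all 40 arrays, of which fewer members are tested, gave 119 and 3. No dye term gave 1 lower call and the replicate block 11. Without a dye term 74 of the 246 higher and 16 of the 17 lower calls were lost, and with array weights 17 and 7. Both arrays of a source had the same weight, so the weights rank sources and cannot weigh down a single array. The F-test against urea called 12 members instead of 31 with genes on all 40 arrays, and the F-test between sources 11 instead of 20, with 9 without a dye term. The 10 pair calls became 1 with genes on all 40 arrays, 2 without a dye term and 3 with the block. For the 6 amino acids, 19 lower members became 11 with genes on all 40 arrays and 11 without tryptophan and tyrosine. The Cy5 table alone, which lacks tryptophan and tyrosine, gave 5 lower and 1 higher. For the 7 fusel amino acids, 2 lower members became 12 with threonine added, 0 without tryptophan and tyrosine and 0 in each table alone. Where the cause is not the smaller set of genes or arrays, it was not tested.

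Leaving out each array in turn gave 228 to 250 higher and 12 to 18 lower calls, 31 to 32 members in the F-test against urea, 17 to 22 between sources, and 5 to 14 pair calls. It gave 17 to 21 lower and 0 to 0 higher members for the 6 amino acids, and 0 to 4 lower and 0 to 1 higher for the 7. The block ended 18 of the 246 higher and 6 of the 17 lower calls, and in the classes those of SSS1 and SEC63 given in the report. In the alternatives fitted on both tables, no called value changed sign. In the Cy5 table alone SEC66, ERV2, OST3 and IRE1, none called over both tables, changed sign in the class of 6. Missing spots limit what can be tested, since 24 of 38 tested members lacked a value on at least 1 array.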

Other observations

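Subunits of oligosaccharyl transferase that were not tested still had single-array values. OST5 had values on 21 arrays, all with the source in Cy3, from -0.40 to 0.18 with a median of -0.22, and 6 were above 0. OST6, the paralog of OST3, had values on 21 arrays, from -0.57 to 0.06 with a median of -0.31, and 1 was above 0.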
